A study of Mus musculus with 6 samples.

Results

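CpG methylation was examined at 10 genes of interneuron and GABAergic fate: Gad1, Gad2, Slc32a1, Dlx1, Dlx2, Dlx5, Lhx6, Pvalb, Sst and Reln. Every measured cytosine between 1 kb upstream of a gene's start and the gene's end was taken as a site of that gene, with the starts and ends of the GENCODE M21 gene records on mm10. This gave 735 of the 890041 measured sites, and all 10 genes held at least 1. The data came from reduced representation bisulfite sequencing (RRBS) of micro-dissected hippocampal dentate gyrus from 6 mice, all females of the C57BL/6JRj strain and 4.5 months old. RRBS reads the ends of short fragments cut at CCGG by the enzyme MspI, so that most sites lie in CpG-rich DNA, and bisulfite treatment tells methylated from unmethylated cytosines. Of these mice, 3 had lived in standard cages (STD) and 3 in an enriched environment (ENR), a large enclosure with tunnels and toys that was shared by a group of mice. Both groups were of the same inbred strain and age, and each library came from 1 mouse.

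GABA is the main inhibitory transmitter of the brain. It is made from glutamate by the glutamate decarboxylases that Gad1 and Gad2 encode, and it is loaded into synaptic vesicles by the transporter of Slc32a1. Dlx1, Dlx2, Dlx5 and Lhx6 encode homeodomain transcription factors that direct the fate and migration of interneurons born in the ventral forebrain, whereas Pvalb (a calcium buffer), Sst (a neuropeptide) and Reln (a large secreted protein of the extracellular matrix) mark classes of mature interneurons. Methylation of CpGs around a start is known to go along with silencing, and CpG-rich starts are unmethylated in most tissues whether or not the gene is used. The dentate gyrus consists mostly of glutamatergic granule neurons, with interneurons as a minority. A percentage measured here is therefore an average over all cells of the tissue, and a change within interneurons cannot be told apart from a change in their share. The data used here hold no transcript levels, so the tissue could not be checked against expressed markers.

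The 735 sites covered 597 CpGs on 111 MspI fragments, and all lay at a CpG of the reference genome. Read numbers are unknown apart from the minimum of 10 reads that a site had to reach in every library, so single percentages are coarse and carry no interval of their own. Of the 10 genes, 6 lie on chromosome 2. Promoters, here the part within 1 kb of the start on either side, held 116 sites for Reln, 98 for Dlx2, 31 for Lhx6, 18 for Dlx1, 12 for Gad2 and 1 for Sst. Gad1, Slc32a1, Dlx5 and Pvalb had no site there. Gene bodies, from over 1 kb after the start to the gene's end, held between 16 sites for Pvalb and 112 for Lhx6, and none for Sst. Over all 890041 sites, the library numbered 3 had the lowest mean of its group, at 22.5% against 24.1% and 24.3% in STD and at 21.3% against 23.9% and 24.2% in ENR. The same held over the 10 genes, with 8.54% against 8.99% and 9.70% in STD and 7.88% against 9.14% and 9.64% in ENR. The number is only a replicate number. Its part in the results below was examined by leaving those libraries out, by a replicate block in limma and by correlating same-numbered libraries. It was not tested further.

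The stretches below carry the levels and differences that the rest of the text turns on. Each is given 5′ to 3′ on the strand of its gene from the mm10 reference, with the CpGs that were measured in capitals. The first 2 hold the single cytosines with the largest gain in ENR, in introns of Gad1 (chr2:70559174-70559338, the CpG at base 145 of the run) and Lhx6 (chr2:36097700-36097838, base 78).
Gad1 intron: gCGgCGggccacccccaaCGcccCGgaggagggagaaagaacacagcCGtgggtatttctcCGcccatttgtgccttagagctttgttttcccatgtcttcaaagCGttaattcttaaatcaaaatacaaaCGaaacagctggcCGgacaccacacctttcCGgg
Lhx6 intron: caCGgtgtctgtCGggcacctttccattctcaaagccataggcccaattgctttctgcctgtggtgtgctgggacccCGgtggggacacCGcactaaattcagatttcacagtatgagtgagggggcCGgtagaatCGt
The next 3 come from Reln and Sst: the 250 bases before the Reln start (chr5:22344703-22344952), which were nearly free of methylation, an 81-base stretch deep in a Reln intron (chr5:22096766-22096846, base 40), which was highly methylated, and the surroundings of the only site of Sst (chr16:23890300-23890380, base 40).
Reln upstream: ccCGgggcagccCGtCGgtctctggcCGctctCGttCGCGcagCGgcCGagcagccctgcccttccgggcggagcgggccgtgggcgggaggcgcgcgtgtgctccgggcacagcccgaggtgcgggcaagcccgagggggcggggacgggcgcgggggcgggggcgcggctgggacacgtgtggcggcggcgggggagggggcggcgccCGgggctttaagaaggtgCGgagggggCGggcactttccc
Reln intron: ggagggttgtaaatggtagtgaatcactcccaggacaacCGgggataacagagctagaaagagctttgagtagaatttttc
Sst intron: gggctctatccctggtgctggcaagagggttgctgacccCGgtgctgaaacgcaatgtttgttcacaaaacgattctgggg
The last 3 show low and high methylation side by side. The Pvalb stretches lie at its second transcript start (chr15:78204294-78204363) and in the next measured stretch of the gene (chr15:78202417-78202710), and the Gad2 stretch lies deep in its body (chr2:22676957-22677011).
Pvalb low: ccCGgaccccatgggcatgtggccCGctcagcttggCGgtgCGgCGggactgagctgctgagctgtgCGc
Pvalb high: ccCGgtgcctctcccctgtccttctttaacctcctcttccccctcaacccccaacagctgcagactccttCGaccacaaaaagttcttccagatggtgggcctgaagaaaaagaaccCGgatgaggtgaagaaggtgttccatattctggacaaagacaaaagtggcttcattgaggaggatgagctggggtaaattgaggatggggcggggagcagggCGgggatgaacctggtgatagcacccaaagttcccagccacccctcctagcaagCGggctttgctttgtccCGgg
Gad2 far: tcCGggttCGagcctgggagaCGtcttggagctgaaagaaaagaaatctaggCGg
The stretches differ in CpG content as well as in level: the 250 bases before the Reln start held 37 CpGs, of which 12 were measured, whereas the Reln intron stretch of 81 bases held 1.

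Most sites of the 10 genes were close to unmethylated. Of the 735 sites, 83.0% had a mean under 10% over the 6 libraries, compared with 63.7% of all sites, and 1.90% lay at 90% or over, compared with 11.1%. Of the 735 sites, 68.3% lay in dense CpG sequence, meaning that the surrounding bases had at least 50% G and C and at least 0.6 of the CpGs that their base content predicts, against 56.2% of all sites. The genes did not follow this share one by one, since it was 5.26% for Dlx5 and 47.1% for Dlx1, both of which were low. As many as 197 sites, or 26.8%, were listed at 0% in all libraries, close to the 29.8% of all sites. The genes differed among themselves. All 19 sites of Dlx5 were under 10%, as were 94.1% of the Slc32a1 sites and 91.4% of the Dlx2 sites, but only 31.3% of the 16 Pvalb sites.

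**Figure D1:**
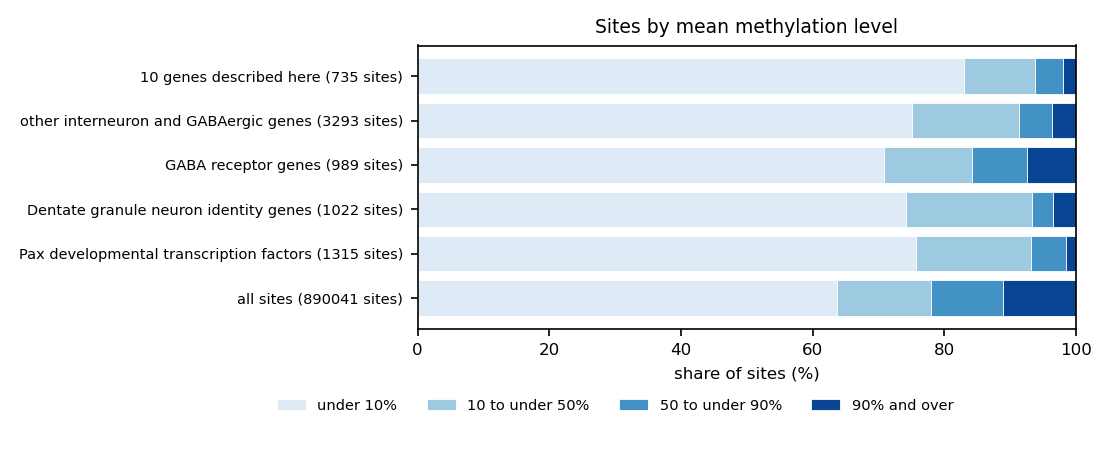
Share of sites (x axis, in percent) by their mean methylation over 6 libraries, for the 10 genes, for 4 lists of other genes and for all sites. The 10 genes had the largest share under 10% of these 6 sets, at 83.0%, and the GABA receptor genes had the lowest of the 5 gene sets, at 70.8%.

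Promoter levels ranged from 1.35% for Reln to 6.21% for Dlx1, with Lhx6 at 1.80%, Dlx2 at 2.13% and Gad2 at 3.95% between them, against a median of 1.80% over 17988 promoters with at least 3 sites. Neighbours in that order overlapped in their ranges over the 6 libraries. The place of Dlx1 held for the start of its GENCODE record only: RefSeq puts the start 1332 bases further in, and the 18 sites within 1 kb of it averaged 2.10%. Body levels ran over a much wider range, from 2.75% for Dlx5, 3.01% for Dlx1 and 3.20% for Slc32a1, through 6.27% for Dlx2, 6.68% for Gad1 and 7.18% for Lhx6, to 15.1% for Gad2, 39.6% for Pvalb and 87.3% for Reln. The median over 14022 gene bodies was 43.1%, so 8 of the 9 bodies lay below it. Gad2 stood above Lhx6, Pvalb above Gad2 and Reln above Pvalb in every library, while the ranges of all other neighbours overlapped.

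**Figure D2:**
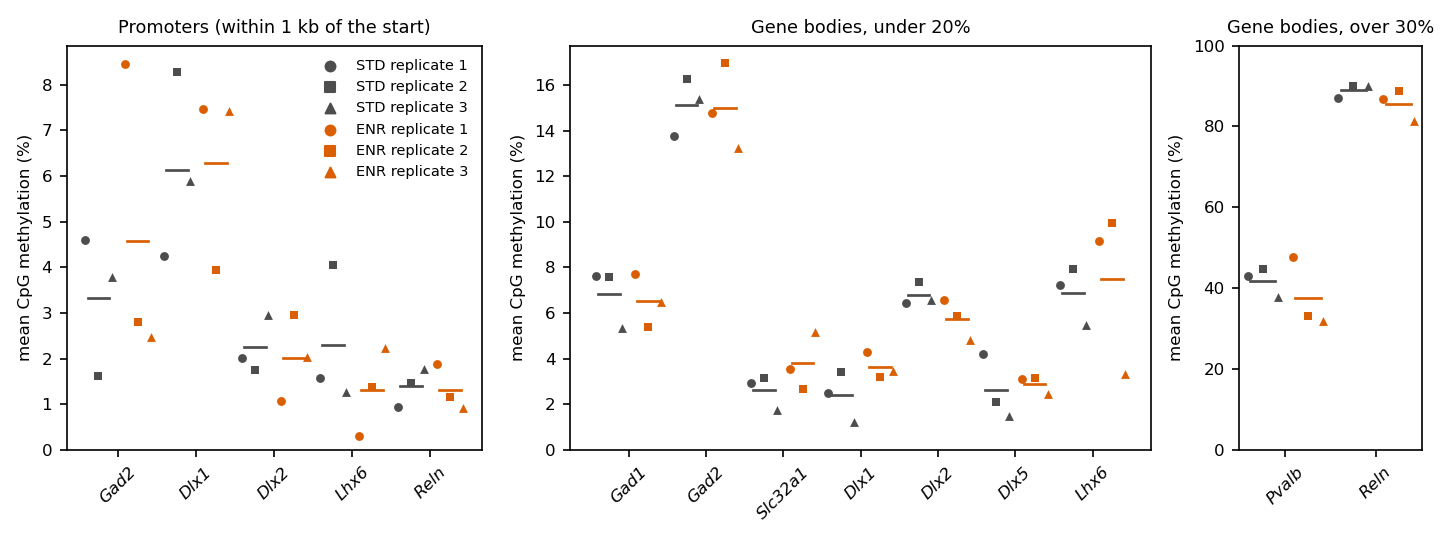
Mean CpG methylation (y axis, percent) of the promoters and bodies of the genes, with 1 point per library and a horizontal line for the mean of each group of 3. The STD and ENR points of every gene overlap, and the scale of the right-hand panel, with Pvalb and Reln, differs from the others.

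Promoter and body were compared within each library for the 5 genes with at least 3 sites in both. The body was the more methylated for Reln, by 85.9 ± 3.05 percentage points (mean ± SD, n = 6 libraries), for Gad2 by 11.1 ± 3.13, for Lhx6 by 5.38 ± 2.98 and for Dlx2 by 4.13 ± 1.24. For Dlx1 the body was the less methylated, with a difference of -3.19 ± 1.65 points. Each of the 5 gaps had 1 sign in 6 of 6 libraries, which gave p = 0.03125 in a 2-sided exact sign-flip permutation test, the smallest value that 6 libraries allow. Over all 9152 genes with at least 3 sites in both parts, the body was above the promoter in every library for 80.8% and below it for 4.81%, with a median gap of 33.0 points. The gaps of Gad2, Lhx6 and Dlx2 rested on a minority of sites, since with medians over sites in place of means only 2 of the 5 genes, Reln and Dlx1, kept 1 sign in every library. For Dlx1 and Lhx6, the agreement of all libraries in sign depended on which start was used, while the direction of the mean gap did not turn. With promoters taken within 1 kb of any transcript start, the gap of Dlx1 was -0.146 points (exact sign-flip p = 0.8125) and that of Lhx6 was 5.71 (exact sign-flip p = 0.0625), with mixed signs in both. Housing did not separate the gaps. They differed between ENR and STD by -3.25 points for Reln, by 1.58 for Lhx6, by -1.39 for Gad2, by 1.11 for Dlx1 and by -0.809 for Dlx2, with overlapping groups in all 5 and exact permutation p-values between 0.2 and 0.6. These values moved with single libraries: Lhx6 to 0.236 without ENR replicate 1, 0.378 without ENR replicate 2 and 4.12 without ENR replicate 3, and Reln to -4.95 without ENR replicate 2 and -1.29 without ENR replicate 3. Gad2 went to 0.0218 without STD replicate 2, 0.661 without ENR replicate 1, -2.71 without STD replicate 1 and -3.26 without ENR replicate 2. Dlx1 ranged from 0.175 without ENR replicate 2 to 2.12 without STD replicate 1, and Dlx2 from -1.69 without ENR replicate 1 to -0.284 without STD replicate 2. With medians over sites, Reln turned to 0.911 and Dlx1 to -0.307.

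Gad1 (chr2:70553072-70602014, plus strand), the decarboxylase that makes most GABA of the brain, was covered by 98 sites, all in what its gene record makes the body. Its mean was 7.60%, 7.59% and 5.36% in the STD libraries and 7.70%, 5.38% and 6.46% in the ENR libraries. The groups overlapped almost entirely, and the difference of -0.335 points was smaller than either group's SD of 1.29 and 1.16. It was -1.08 without STD replicate 3, -0.927 without ENR replicate 1, and 0.0406, 0.0334 and 0.230 without STD replicate 1, STD replicate 2 and ENR replicate 2. Without the 49 sites that also lie in the record of Gad1os it was -1.04, and with quantile normalization 0.418. The record begins 9057 bases ahead of the start that RefSeq gives for Gad1, and the 25 sites within 1 kb of that RefSeq start averaged 1.59%. Levels were higher on both sides, at 13.3% over 11 sites at 6.10 kb from the record's start and 18.1% over 6 sites at 12.55 kb. The cluster furthest into the gene, 3 sites in a coding exon at 34.3 kb, was at 45.1%, 47.0% and 32.4% in STD and at 34.3%, 7.94% and 36.4% in ENR. ENR replicate 2 alone was low there.

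Gad2 (chr2:22622205-22693874, plus strand), the decarboxylase of nerve terminals, had 12 promoter sites at 4.59%, 1.61% and 3.78% in STD and 8.45%, 2.79% and 2.46% in ENR. ENR replicate 1 was the highest and STD replicate 2 the lowest, and the groups overlapped. Its body averaged 15.1%, but this mean joined, beside 1 other site, 23 sites from 1.41 kb after the start at about 2% with 4 sites at 54.8 kb, the Gad2 stretch printed above. Those 4 sites averaged 64.6%, 75.1% and 78.3% in STD and 67.2%, 89.7% and 61.3% in ENR. The ENR libraries were both the highest and the lowest of the 6. Slc32a1 (chr2:158610767-158615748, plus strand), the vesicular GABA transporter, was low over its 68 body sites, at 2.94%, 3.13% and 1.75% in STD and 3.53%, 2.67% and 5.17% in ENR. Its ENR mean was 1.18 points above the STD mean (SE 0.835, limma), with ENR replicate 2 inside the STD range. It was 0.753 points without STD replicate 3, 0.491 without ENR replicate 3, 0.301 with MspI fragments weighted equally and 0 with medians over sites. With quantile normalization it was 1.92 and without ENR replicate 2 it was 1.75. The groups did not overlap in either, as in 9.61% and 16.8% of all bodies.

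Dlx1 and Dlx2, a pair of neighbouring homeobox genes that act early in interneuron fate, were low on average, with single sites reaching a mean of 18.9% in Dlx1 and 52.7% in Dlx2. The Dlx1 promoter (gene at chr2:71528113-71533981, plus strand) was at 4.24%, 8.29% and 5.88% in STD and 7.47%, 3.94% and 7.43% in ENR over 18 sites. Its body was at 2.51%, 3.42% and 1.22% in STD and 4.28%, 3.17% and 3.47% in ENR over 33 sites, a difference of 1.26 points (SE 0.748, limma). Only STD replicate 2 reached into the ENR range, and the difference was 0.675 without STD replicate 3 and 0 with medians over sites. All sites of Dlx1 also lie in the record of its antisense gene Dlx1as. The Dlx2 promoter (gene at chr2:71543408-71546754, minus strand) had 98 sites and ranged from 1.07% to 2.96% over the 6 libraries. Its body was at 6.45%, 7.34% and 6.55% in STD and 6.56%, 5.88% and 4.81% in ENR over 53 sites, 1.03 points lower in ENR with only ENR replicate 1 inside the STD range. The difference was -0.561 without ENR replicate 3, -0.458 with quantile normalization and -0.159 without the sites near any transcript start. Dlx5 (chr6:6877805-6882085, minus strand), a later member of the same family, was between 1.48% and 4.21% over its 19 body sites.

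Lhx6 (chr2:36081953-36105408, minus strand), which keeps cells of the medial ganglionic eminence on the way to parvalbumin and somatostatin interneurons, had the most varied body of the transcription factors. Its promoter was at 1.58%, 4.05% and 1.27% in STD and at 0.293%, 1.37% and 2.23% in ENR over 31 sites. Its body was at 7.25%, 7.94% and 5.49% in STD and at 9.15%, 9.95% and 3.32% in ENR over 112 sites, with the library numbered 3 lowest in both groups. The body difference of 0.579 points turned to -0.122, -0.259 and -0.658 without STD replicate 3, ENR replicate 1 and ENR replicate 2. Without ENR replicate 3 it was 2.66 and the groups did not overlap, as in 18.9% of all bodies. Without both libraries numbered 3, neither part of the gene overlapped between the groups, with differences of -1.98 points in the promoter and 1.95 in the body. With only 2 libraries a group, however, 33.5% of all promoters and 33.3% of all bodies did not overlap. Within the body, 5 sites at 3.48 kb from the start averaged 38.5%, 26.3% and 19.2% in STD and 38.4%, 35.1% and 7.93% in ENR. A further 26 sites at 13.8 kb averaged 10.5%, 7.78% and 0.394% in STD and 9.39%, 16.6% and 1.13% in ENR. In both clusters the spread within each group was larger than the difference between groups.

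Pvalb (chr15:78191114-78206400, minus strand), the calcium-binding protein of fast-spiking interneurons, changed level over a short distance. The 6 sites at its second transcript start, 2.04 kb after the start of the record, were at 3.24%, 0% and 2.08% in STD and 4.02%, 0% and 0.926% in ENR. The 7 sites of the next stretch, at 3.69 kb, were at 72.3%, 79.6% and 81.1% in STD and 79.5%, 66.6% and 66.7% in ENR. That step, from under 5% to over 66%, was present in all 6 libraries. The 3 sites at 10.8 kb did not hold a common level: they were at 54.3%, 52.3% and 8.33% in STD and at 60.3%, 20.8% and 11.7% in ENR, again lowest in the library numbered 3 of each group. Over its 16 sites, Pvalb was 4.38 points lower in ENR (SE 5.17, limma), with an SD of 8.81 in ENR. ENR replicate 1, at 47.6%, was the highest library of all. The difference moved with single libraries, to -9.45 without ENR replicate 1, -2.17 without ENR replicate 2 and -1.52 without ENR replicate 3. By cluster it was -0.125 points at 2.04 kb, -6.74 at 3.69 kb and -7.36 at 10.8 kb, with overlapping groups in each.

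Sst (chr16:23889573-23890958, minus strand), the neuropeptide of dendrite-targeting interneurons, was represented by 1 intronic cytosine 618 bases after the start. It was at 1.85%, 54.8% and 0% in STD and at 0%, 0% and 2.13% in ENR. STD replicate 2 alone was high, and without it the difference went from -18.2 to -0.217 points. No statement on Sst as a gene can rest on this single cytosine.

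Reln (chr5:21884454-22344702, minus strand), expressed by Cajal-Retzius cells and by interneurons of the outer layers, showed the sharpest division between promoter and body. Its 116 promoter sites averaged between 0.921% and 1.87% in the 6 libraries, and 97.4% of them lay in dense CpG sequence. No promoter site had a mean over 11.7%, the last of them lying 0.914 kb after the start. From the next measured site, at 3.59 kb, to the last, at 413.5 kb, all 32 sites had means between 68.4% and 100%, and none lay in dense CpG sequence. The body was at 87.0%, 90% and 89.9% in STD and 86.7%, 88.9% and 81.3% in ENR. The difference of -3.33 points (SE 2.74, limma) came mostly from ENR replicate 3, without which it was -1.17, and with the median over sites in place of the mean it was 0.911, in the other direction. Without the 6 sites that also lie in the record of another gene, Gm10475, it was -1.04. A run of 5 sites at 412.9 kb was part of this, at 84.3%, 91.5% and 94.0% in STD and 82.1%, 94.3% and 51.6% in ENR.

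**Figure D3:**
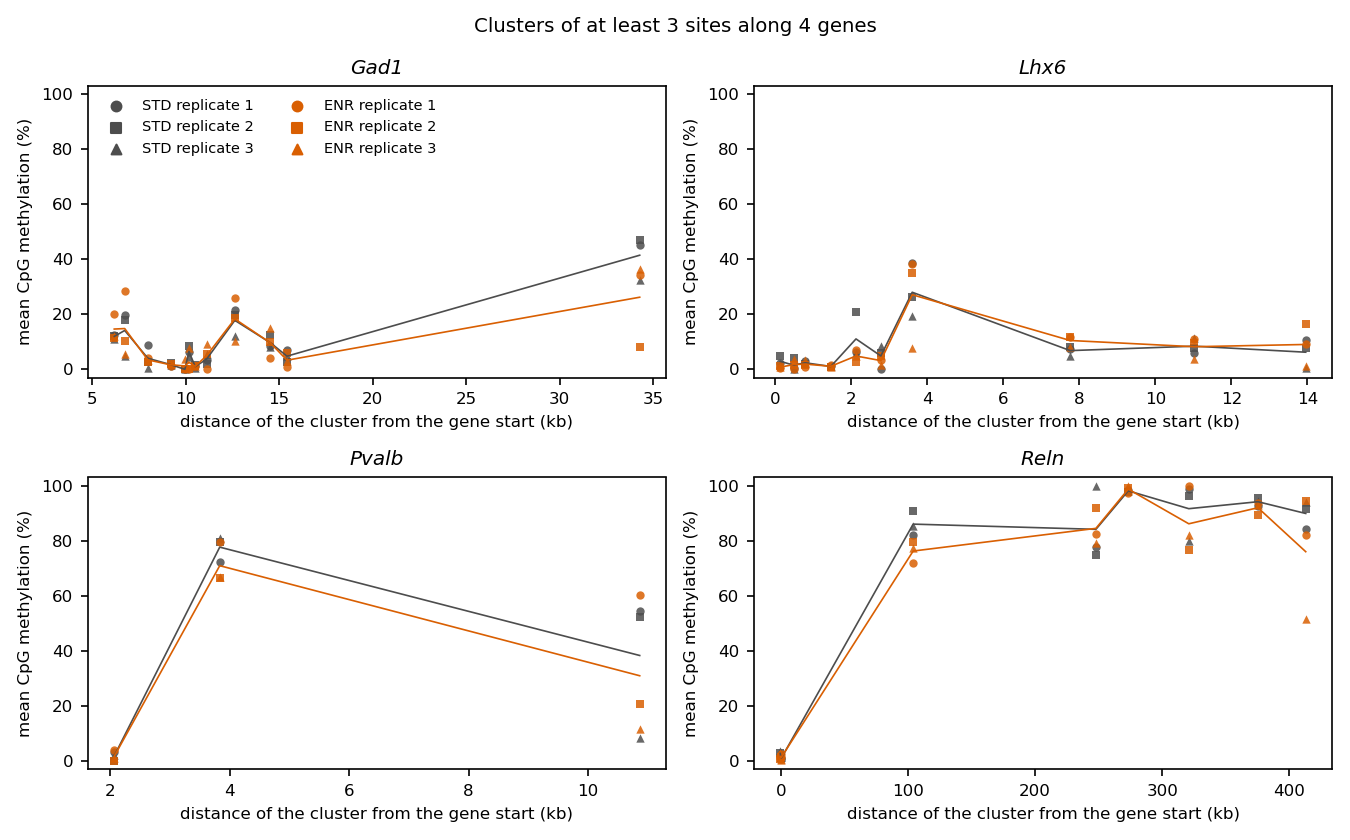
Mean methylation (y axis, percent) of clusters of at least 3 sites against their distance from the gene start (x axis, kb) in Gad1, Lhx6, Pvalb and Reln, with 1 point per library and lines joining the group means of neighbouring clusters. Levels go from under 5% to over 66% within the first 4 kb of Pvalb and from under 4% at the start of Reln to over 50% in all of its later clusters, in STD and ENR alike.

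The question of the design was whether housing altered methylation. None of the 5 promoters with at least 3 sites and none of the 9 bodies separated the groups without overlap, where 9.47% of all promoters and 7.91% of all bodies did. Exact permutation p-values lay between 0.2 and 1, and 3 mice against 3 cannot go below 0.1. The fit over all genes with limma called 0% of 17950 promoters and 0% of 14012 bodies at a Benjamini-Hochberg adjusted p under 0.05, with smallest adjusted values of 0.529 and 0.654. No promoter and no body of the 10 genes reached an unadjusted p under 0.05, which 4.39% of all promoters and 3.52% of all bodies did. Their smallest unadjusted values in limma were 0.288 for the Lhx6 promoter and 0.141 for the Dlx1 body. Of the 9 bodies, 4 were higher and 5 lower in ENR, with a median difference of -0.149 points, beside a median of -0.564 over all bodies. The 5 promoters had a median difference of -0.0802 points, beside -0.0366 over all promoters. Leaving out single libraries turned the direction at least once in 4 of the 9 bodies (Gad1, Gad2, Dlx5 and Lhx6) and in 4 of the 5 promoters (all but Lhx6). An adjusted p above the threshold does not show that the groups were alike.

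Single sites were compared next. Group means lay more than 25 points apart at 3 of the 735 sites, or 0.408%, against 1.94% of all sites. Of these, 2 were higher in ENR, where the share over all sites was 0.706%, and 1 was lower, where it was 1.23%. Since a site near 0% or 100% leaves little room, the count was also taken over sites whose mean left room for such a difference in both directions: it was 3 of 82, or 3.66%, against 9.01%. Groups did not overlap at 29 sites, or 3.95%, against 3.99% of all sites. Of these, 16 (2.18%) were higher in ENR, beside 1.65% of all sites, and 13 (1.77%) lower, beside 2.34%. In limma, 0 of 537 varying sites of the genes and 0% of 615152 varying sites in all passed an adjusted p under 0.05 with a difference over 25 points, the smallest adjusted p being 0.852. An unadjusted p under 0.05 was reached by 10 of the 537, or 1.86%, against 2.68%. Both shares were near or under those of the whole table.

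**Figure D4:**
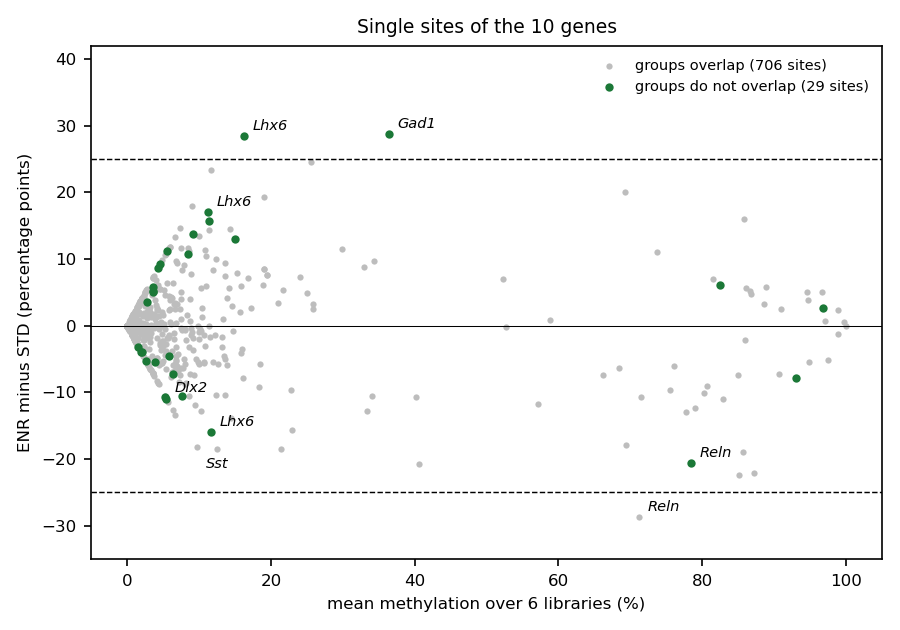
Difference of group means (y axis, ENR minus STD in percentage points) against the mean over 6 libraries (x axis, percent) for the 735 sites, with 29 sites whose groups do not overlap in green and dashed lines at 25 points. Only a Gad1 site and a Lhx6 site lie above the upper line and 1 Reln site below the lower, and most sites are crowded near 0%.

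The largest gain was at the Gad1 intron cytosine printed above (chr2:70559319, minus strand), 6247 bases after the record's start and also within the record of the antisense gene Gad1os. It was at 28.7%, 16.2% and 21.5% in STD and at 61.1%, 50% and 41.3% in ENR. All ENR libraries were above all STD libraries, by 28.7 points on average (exact permutation p = 0.1, the smallest possible). Of the 5 other sites within 100 bases, however, none separated the groups, and the nearest, 17 bases on, was at 41.9%, 25% and 18.8% in STD and 62.1%, 30.6% and 19.3% in ENR.

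The Lhx6 intron cytosine (chr2:36097761, minus strand), 7647 bases after the start, was at 0%, 6.25% and 0% in STD and at 21.4%, 30% and 40% in ENR, a gain of 28.4 points. The cytosine of the same CpG on the other strand was at 4.76%, 2.93% and 2.11% in STD and 0%, 4.02% and 5.96% in ENR, so the gain was seen on 1 strand. Of the 7 other sites within 100 bases, 1 did not overlap, 12 bases away on the same strand, at 9.09%, 0% and 0% in STD and 21.4%, 10% and 10% in ENR. The same was true of the next gain without overlap, in a coding exon of Lhx6 at chr2:36094337, of 17.0 points: it went from 0%, 0% and 8.33% to 8.89%, 13.3% and 37.1%, while the paired cytosine ranged from 2.38% to 13.3% in STD and from 0% to 11.3% in ENR. The cluster that holds the first of these sites, 17 sites from 7.51 kb, was at 7.39%, 8.06% and 4.97% in STD and 11.6%, 11.7% and 8.16% in ENR. Without that cytosine, the other 16 sites were at 7.85%, 8.18% and 5.28% in STD and 11.0%, 10.5% and 6.17% in ENR, and the groups overlapped.

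Losses without overlap reached 20.6 points. The Reln intron cytosine at chr5:22096806, the only measured CpG of its printed stretch, was at 90.2%, 76.0% and 100% in STD and 65.7%, 75.8% and 62.9% in ENR, with ENR replicate 2 only just below the lowest STD library. The cluster of 3 sites that holds it showed no loss, at 77.6%, 74.9% and 100% in STD and 82.3%, 91.9% and 79.3% in ENR. Its mean was 0.351 points higher in ENR, and the groups overlapped. A Lhx6 intron cytosine at chr2:36103233 was at 19.3%, 28.1% and 11.7% in STD and 11.2%, 0% and 0% in ENR, and a Dlx2 cytosine at chr2:71545679, in an exon of a noncoding transcript of the gene, was at 8.16%, 12.3% and 12.4% in STD and at 0% in all 3 ENR libraries. Within 100 bases, none of the 5 other sites of this Lhx6 cytosine and none of the 9 of the Dlx2 cytosine separated the groups. The Reln site with the loss over 25 points, at chr5:21931629 and also in the record of Gm10475, overlapped between the groups, with 64.6%, 94.3% and 97.9% in STD and 37.0%, 91.7% and 42.1% in ENR.

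All 3 sites over 25 points lay within CCGG, the sequence that MspI cuts, where the ends of fragments are filled in during library preparation. Such sites made up 176 of the 735, or 23.9%, and 29.7% of the whole table. They were more often without overlap, at 14 of 176 (7.95%) against 15 of 559 elsewhere in the genes (2.68%), and the same shares over the whole table were 6.93% and 2.75%. They also had more room to differ, with a mean level of 18.5% against 5.97%. The authors state that reads with a detected adapter were trimmed further to remove filled-in cytosines. The part that the place of the CCGG sites at a cut has in the differences was not tested. At the 10 CpGs of the genes measured on both strands with a level of 10% to 90%, the strands of 1 library differed by 14.1 points on average, beside 17.5 points over all such CpGs.

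Neighbouring sites at most 150 bases apart were also joined into clusters, of which 50 held at least 3 sites. Groups did not overlap in 5 of the 50, or 10%, against 8.83% of all clusters, so the share was near the background. In limma 0% of 73608 clusters passed the adjusted threshold, and 2 of the 50, or 4%, had an unadjusted p under 0.05, against 4.05%. These were 3 Reln sites at 103.9 kb, at 82.2%, 90.7% and 85.3% in STD and 71.9%, 79.7% and 77.3% in ENR, and 15 Lhx6 sites from 87 bases after the start, at 2.17%, 4.68% and 1.86% in STD and 0.303%, 1.26% and 0.787% in ENR. The other 3 clusters without overlap were the Lhx6 cluster at 7.51 kb, which overlapped once its single cytosine with the large gain was left out, 23 sites of Gad2 at 1.41 kb, which went from 1.96%, 2.37% and 2.18% to 1.93%, 1.40% and 1.84%, and 30 sites of Slc32a1 at 3.99 kb, which went from 1.33%, 1.40% and 0.547% to 1.40%, 2.68% and 4.25%. All but the Reln cluster and the Lhx6 cluster at 7.51 kb were under 5% in every library.

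In the 12 clusters with a mean of 10% to 90%, the 6 libraries spanned a median of 24.5 points, against 6.71 in all 50 clusters, most of which lay near 0% and so had little room to vary. The 6 of these clusters under 50%, in Gad1, Lhx6 and Pvalb, were lowest in STD replicate 3 among STD in 6 of 6 and lowest in ENR replicate 3 among ENR in 4 of 6. In the 6 clusters over 50% this was so in 1 and in 3. Those libraries also had the lowest means over all sites, as given above.

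**Figure D5:**
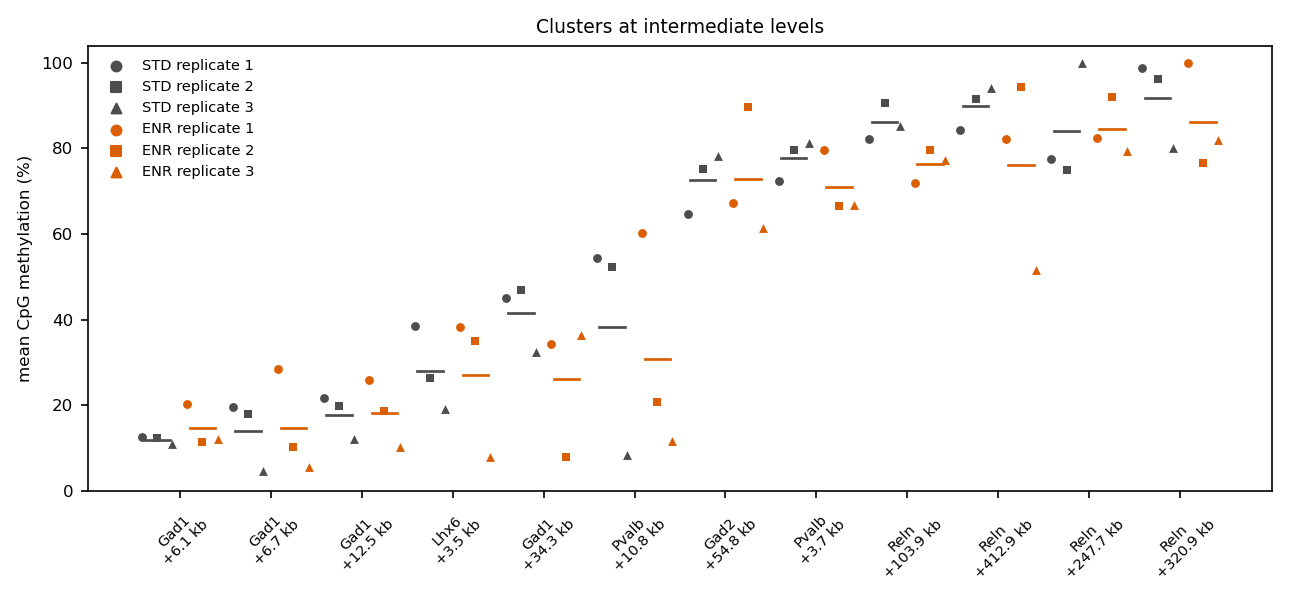
Mean methylation (y axis, percent) of the 12 clusters of at least 3 sites with a mean between 10% and 90%, ordered by level, with 1 point per library and lines for group means. The points of a cluster span up to 52.0 points, in Pvalb at 10.8 kb, and the groups are apart only in Reln at 103.9 kb.

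The starts were also searched for 3 short motifs on both strands, in the 300 bases from 250 before to 50 after each RefSeq start (GRCm38.p6), where 9 of the 10 genes had an entry. The cAMP response element TGACGTCA was found for Sst, with its first base 48 bases before the start, and for no other of the 9. It was present in 2.03% of 27025 genes. Its CpG was not among the measured sites, the only one of which lies 504 bases from that start. The GC box GGGCGG was found for Gad1, Dlx1, Dlx2, Lhx6 and Reln, or 5 of 9 genes, against 38.2% of all, and occurred 6 times in the Reln window, part of which is printed above. The homeodomain core TAATTA was found in none of the 9 and in 6.12% of all genes. A match describes letters and not binding, and these motifs can overlap others.

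Other genes of inhibitory neurons gave a wider view. Of 39 further interneuron and GABAergic genes, 36 had a promoter with at least 3 sites, at a median level of 1.82%, and 35 had such a body, at a median of 13.9%. Promoters did not overlap between the groups in 3 of 36, or 8.33%, and bodies in 5 of 35, or 14.3%, beside the 9.47% and 7.91% of all genes. The body of Calb2, the calcium buffer calretinin, was lower in ENR, at 23.5%, 31.4% and 23.7% in STD and 19.9%, 21.7% and 12.8% in ENR. The body of Gsx2, a ventral forebrain patterning factor, was at 10.4%, 10.8% and 8.72% in STD and 0.673%, 4.01% and 2.17% in ENR. Tac1, which encodes the substance P precursor, was higher, at 2.03%, 2.09% and 0.942% against 4.07%, 3.79% and 3.91%. Nr2f1, a nuclear receptor of caudal interneurons, was higher by 1.99 points, and the fifth body, that of Dlx6, the neighbour of Dlx5, which was named after its values were seen, was lower by 4.38, from 16.3%, 16.2% and 15.9% to 12.7%, 12.1% and 10.4%. Among promoters, Slc6a11, a GABA transporter, was 1.40 points higher, and Isl1 and Calb2 were 1.56 and 0.575 points lower. None of them passed the adjusted threshold in limma.

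The remaining lists are given by counts, to be read beside the 9.47% of all promoters and 7.91% of all bodies without overlap. GABA receptor genes did not overlap in 1 of 13 promoters (7.69%) and 2 of 14 bodies (14.3%), where the promoters of Gabra4 and Gabrb1 are the same 23 sites, and their bodies were far more methylated than those of the 10 genes, with a median of 65.5% against 6.68%. Identity genes of dentate granule neurons did not overlap in 2 of 12 promoters (16.7%) and 1 of 12 bodies (8.33%), with a median body level of 15.3%. Pax transcription factors did not overlap in 1 of 6 promoters (16.7%) and 0 of 8 bodies, with a median of 15.2%.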

How the data were processed

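Dentate gyrus DNA of 3 STD and 3 ENR mice was analysed by RRBS. The deposited table gives the percent methylation of each site in each library, which the authors computed as methylated over all reads from bisulfite alignments, keeping sites with at least 10 reads in every library. The submitters' processing notes name Trim Galore 0.4.0, cutadapt 1.8.1, Bismark 0.16.1, methylKit 1.5.2 and mm10. Read numbers were not used here, so precision per site is unknown and no read-level test was run. All columns of values were used.

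Sites were assigned to GENCODE M21 genes by strand. Promoters were within 1 kb of the gene start, bodies beyond it, and clusters joined sites at most 150 bases apart. Regions of at least 3 sites were averaged per library. Groups were compared by 2-sided exact permutation over 20 regroupings, promoter and body by sign flips (64 patterns), and all regions or varying sites by limma (housing as the only term, variance trend, Benjamini-Hochberg adjustment, threshold 0.05, for sites also a difference over 25 points). The limma fit was also run on values shuffled over libraries, without and with known shifts. These shifts were larger than any difference given for the 10 genes, so power at smaller differences was not tested. Named were all 10 genes, the 3 largest differences in each direction among sites without overlap (1 per 100 bases), the sites over 25 points, and from the list of other interneuron genes the 2 largest differences in each direction without overlap. Members and lists were chosen with earlier results of these data known. Alternatives were medians, averaged strands, weighted fragments, other promoter definitions, quantile normalization, an arcsine scale, no trend, a replicate block and leaving out libraries. Python 3.11.15, numpy 2.4.6, pandas 2.3.3, scipy 1.17.1, matplotlib 3.10.9, R 4.3.3 and limma 3.58.1 were used. Sequences came from the mm10 reference and RefSeq.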

Additional observations from a re-analysis of the deposited data

How the results depend on the processing

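No value of the 10 genes was called by limma under any alternative run, the replicate block included, which called 0 promoters, bodies and sites. Deviations from the group means correlated at 0.0552, 0.0319 and 0.125 between same-numbered libraries over 615152 sites. This cannot show whether the numbers pair the mice. STD replicates 1 and 3 correlated best with their own number and STD replicate 2 with ENR replicate 1. Genes whose bodies did not overlap between groups went from 0 to 1 of 9 (Dlx2) with strands averaged, where 8.03% of all bodies did not overlap, to 2 (Dlx1 and Slc32a1) with quantile normalization (9.61% of all), and to between 0 and 3 when 1 library was left out (13.9% to 19.6% of all), the most without ENR replicate 2 (Dlx1, Reln and Slc32a1). The gap of body over promoter kept 1 sign in 2 genes instead of 5 with medians over sites, and did not overlap between groups in 0 to 2 of 5 genes when 1 library was left out (14.1% to 19.3% of all genes), the most without STD replicate 1 (Dlx1 and Reln). Leaving a single cytosine out of its cluster (Lhx6) and leaving out both libraries numbered 3 were chosen after seeing the data; the latter left 1 promoter, 1 body and 1 gap without overlap, all of Lhx6 (33.5%, 33.3% and 33.6% of all), and 9 sites over 25 points (1.22%, against 2.85% of all sites). Those sites numbered 9 with medians in place of group means (3.07% of all sites), 9 when 20 points sufficed (3.74%), 0 when 40 were required (0.244%), and 3 to 10 when 1 library was left out (2.60% to 3.42%), the most without STD replicate 3. On the arcsine scale 1 promoter of all genes was called, not one of the 10. A higher coverage minimum was not run, since it needs read numbers. The cause of these shifts was not tested. With 3 mice a group and at least 10 reads a site, the main limma fit called no site, cluster, promoter or body of any gene. Differences within the spread given beside each gene, and larger ones, may have been missed. The smallest difference that could have been detected is unknown.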
